A study of Mus musculus with 6 samples.

Results

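The Th2 program genes are the 9 genes Gata3, Stat6, Nfil3, Il4, Il5, Il13, Il9, Il4ra and Il1rl1, taken by symbol from a table of 31017 mouse genes. They are 3 transcription factors, 4 cytokines and 2 cytokine receptors. All 9 were in the table, and 8 of them passed the filter on low counts that left 14268 genes to test. Il5 did not pass and was too low to test. RNA was sequenced from Th17 cells differentiated in culture, in 3 control libraries with the genotype label WT and 3 RTF1-deficient libraries with the genotype label KO. RTF1 travels with the PAF1 complex on transcribing RNA polymerase II and promotes ubiquitination of histone H2B. The labels do not give the allele, the way Rtf1 was deleted, the culture conditions, or whether the replicates came from separate animals. The p-values therefore measure only the spread between these libraries, part of which may be technical.

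Helper T cells take on different programs, each named for what it secretes. Th17 cells make interleukin 17, and Th2 cells make IL-4, IL-5 and IL-13, which drive immunity to parasitic worms and allergic inflammation. IL-4 binds a receptor built on IL-4Rα, which activates the transcription factor STAT6. STAT6 in turn raises GATA3, the master regulator of the Th2 state, which acts on the cytokine locus shared by Il4, Il13 and Il5. In Th17 cultures this program is usually held low, and antibodies to IL-4 are often added for that purpose.

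Total counts per library ran from 16489813 to 51271226. Rtf1 itself was at 94.0, 91.2 and 88.3 CPM (counts scaled to a common library total, here with TMM factors) in control replicates 1, 2 and 3, and at 45.3, 30.4 and 26.2 CPM in the KO replicates. The log2 fold change was −1.42 with an SE of 0.191 (edgeR quasi-likelihood test, adjusted p = 0.000755), with no overlap between the groups. The residual Rtf1 signal is a property of the KO libraries as sequenced. All 11 markers of T cells were detected, with a summed level of 2943 to 3527 CPM in control and 2416 to 2714 CPM in KO. They went both ways, with 6 lower and 2, Cd3e and Cd3g, higher in KO at an edgeR adjusted p under 0.05. Of all tested genes, 22.9% were lower and 23.2% higher at that threshold. The 7 markers of Th17 cells summed to 1624 to 2148 CPM in control and 624 to 1275 CPM in KO. Replicate 3 of each group carried 11376 and 5147 counts of 4 Y-linked genes, and the other libraries carried 1 to 3, so the libraries numbered 3 differ in sex from the rest. For those of the 9 genes whose call changes without them, both values are given.

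Among the 9 genes, Il4, Il13 and Gata3 fell in KO and Il1rl1 rose, while Stat6, Nfil3, Il9 and Il4ra did not pass the test. A gene was called at an adjusted p-value under 0.05 over all tested genes. Of all tested genes 46.1% were called, 22.9% lower and 23.2% higher in KO, so 4 of the 8 tested genes is a share near that background. Over all tested genes the median log2 fold change was 0.013. In bulk RNA, fewer cells of a type and less RNA per cell cannot be told apart.

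**Figure D1:**
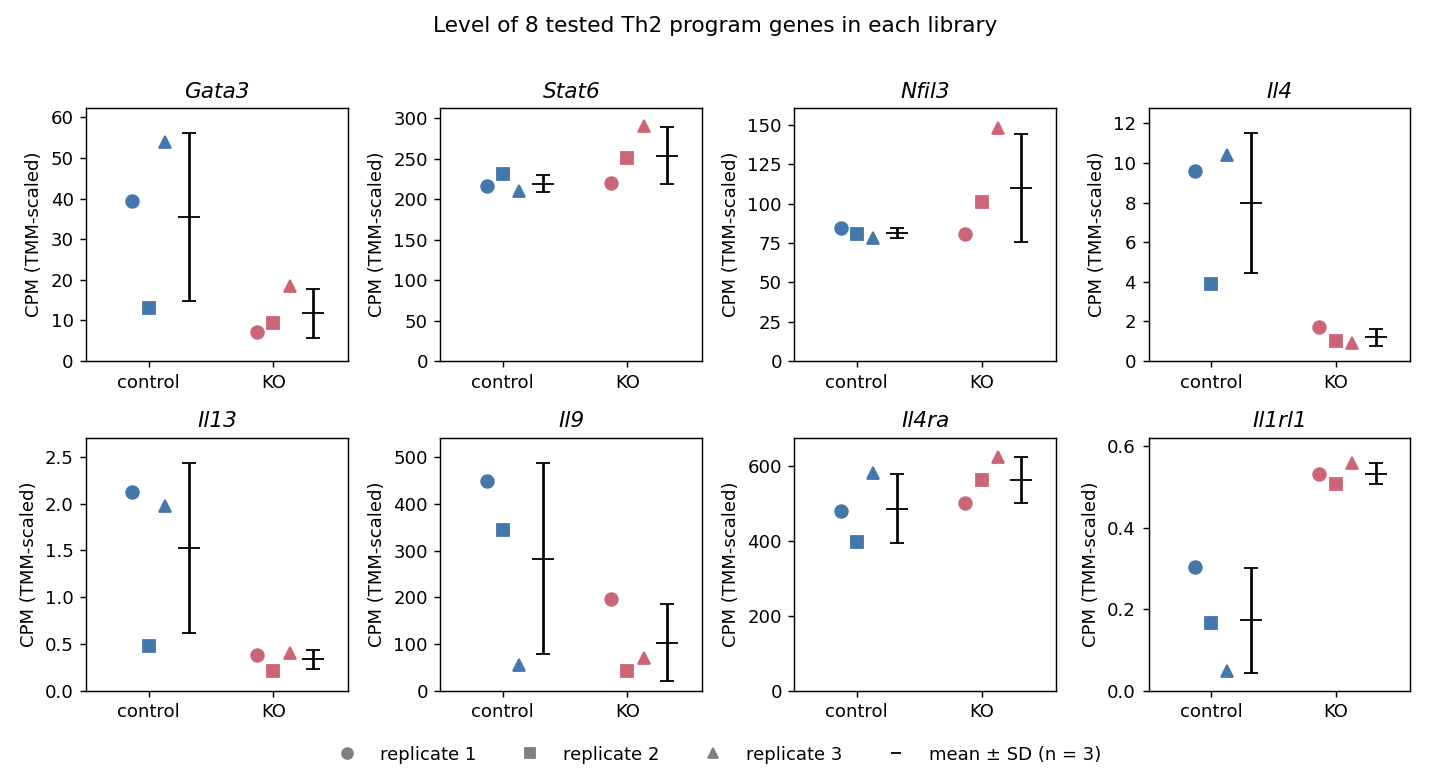
Level in CPM (vertical axis, starting at 0) of the 8 tested genes in each of the 3 control and 3 KO libraries, with the mean and SD of each group as black bars. Il4 and Il13 lie lower and Il1rl1 higher in every KO library than in any control library, while Gata3 overlaps through control replicate 2 at 13.02 CPM and KO replicate 3 at 18.6 CPM.

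Il4, the cytokine that both defines and sustains Th2 cells, showed the clearest difference of the set. It lies on chromosome 11 (GRCm38, chr11:53602982-53618669, minus strand). Control replicates 1, 2 and 3 held 9.61, 3.90 and 10.4 CPM, from 158, 189 and 437 counts. KO replicates 1, 2 and 3 held 1.71, 1.01 and 0.915 CPM, from 45, 38 and 18 counts. Every KO library was below every control library, a pattern shared by 28.0% of all tested genes. In either direction, 3 of the 8 tested genes (Il4, Il13 and Il1rl1) did not overlap between the groups, against 57.9% of all tested genes. The mean fell from 7.96 ± 3.54 to 1.21 ± 0.432 CPM (SD, n = 3), a 6.51-fold lower fitted level (log2 fold change −2.70 with SE 0.437, edgeR adjusted p = 0.00166). KO was lower in each pair of equal replicate number, with log2 ratios of −2.49, −1.94 and −3.50. Pooled over the group, the level was 7.33 CPM in control (exact Poisson 95% interval 6.82 to 7.86, counting error only) and 1.21 CPM in KO (0.986 to 1.47).

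Il13, the effector cytokine of mucus production and airway reactivity, lies next to Il4 (chr11:53631324-53634702, minus strand). It was at 2.13, 0.475 and 1.97 CPM in control replicates 1, 2 and 3, from 35, 23 and 83 counts. In KO it was at 0.380, 0.214 and 0.407 CPM, from 10, 8 and 8 counts. The groups did not overlap, although control replicate 2 at 0.475 CPM lay close to KO replicate 3 at 0.407 CPM. The mean fell from 1.52 ± 0.913 to 0.333 ± 0.105 CPM (n = 3, ± SD; log2 fold change −2.19 with SE 0.625, edgeR adjusted p = 0.0196). The call was lost without control replicate 1 (−1.94, adjusted p = 0.0519), without KO replicate 2 (−1.91, adjusted p = 0.0828) and with the libraries numbered 1 and 2 alone (−2.05, adjusted p = 0.0503).

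Il5, the growth factor of eosinophils, lies beyond Rad50 in the same locus (chr11:53720794-53725106, plus strand). It had 3 counts in control replicate 3 and none in the other 5 libraries. Pooled, this was 0.0280 CPM in control (exact Poisson 95% interval 0.00578 to 0.0819). In the pooled KO libraries, with 0 counts, the floor of 3 counts corresponds to 0.0360 CPM and the exact Poisson 95% upper limit to 0.0442 CPM, both for counting error alone. Both groups were thus at or under the limit of detection and no fold change is given. Of the exonic bases of Il5, 27.1% overlap the antisense gene Gm12214, from which its reads cannot be told apart without a stated strand setting.

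Il9, the cytokine of the related Th9 state that is also made by Th17 cells under TGF-β, was by far the most abundant of the 4 cytokines and also the most variable. It lies on chromosome 13 (chr13:56479277-56482246, minus strand). Control replicates 1, 2 and 3 held 449.6, 344 and 54.8 CPM. KO replicates 1, 2 and 3 held 197, 42.2 and 69.9 CPM. Control replicate 3 lay among the KO libraries, and KO replicate 1 lay above control replicate 3, so the groups overlapped. The means of 283 ± 204 and 103 ± 82.4 CPM (SD, n = 3) gave a log2 fold change of −1.46 with an SE of 0.733 (edgeR adjusted p = 0.133), which was not called.

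The Il9 difference depended on single libraries. Without control replicate 3 it was −1.99 (edgeR adjusted p = 0.00714), and without KO replicate 1 it was −2.34 (adjusted p = 0.0374). Without control replicate 1 it was −1.05 (adjusted p = 0.323). The libraries numbered 1 and 2 alone gave −1.74 (adjusted p = 0.0152), and the fit without a filter on low counts gave −1.47 (adjusted p = 0.0442). In the pair of libraries numbered 3 the KO level was the higher one, with a log2 ratio of 0.35, against −1.19 and −3.03 in the pairs numbered 1 and 2. The cause was not tested.

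The start-site regions of the 3 cytokine genes detected here are shown because Il4 and Il13 fell together while Il9 did not pass the test. Each is the 250 bases before a RefSeq start site (build GRCm38.p6), written 5′ to 3′ on the gene's strand. Capitals mark matches on either strand to 5 motifs. They are the STAT6-spaced motif, which is TTC and GAA with any 4 bases between them; the GATA factor motif in the form AGATAA and in the form TGATAA; the NFAT core GGAAAA; the AP-1 motif TGANTCA; and the NFIL3 motif in the form TTACGTAA and in the form TTATGTAA. The Il4 region is chr11:53618666-53618915, the Il13 region chr11:53634703-53634952 and the Il9 region chr13:56482258-56482507, all on the minus strand.
Il4: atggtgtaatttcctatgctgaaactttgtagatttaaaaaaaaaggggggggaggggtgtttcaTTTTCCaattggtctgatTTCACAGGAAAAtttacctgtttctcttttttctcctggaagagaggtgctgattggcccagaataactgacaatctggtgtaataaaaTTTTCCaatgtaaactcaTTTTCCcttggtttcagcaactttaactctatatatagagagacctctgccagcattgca
Il13: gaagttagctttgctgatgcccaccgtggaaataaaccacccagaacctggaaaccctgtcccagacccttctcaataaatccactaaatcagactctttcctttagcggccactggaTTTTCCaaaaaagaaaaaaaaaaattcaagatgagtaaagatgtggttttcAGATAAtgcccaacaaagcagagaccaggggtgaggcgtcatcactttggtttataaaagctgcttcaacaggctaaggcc
Il9: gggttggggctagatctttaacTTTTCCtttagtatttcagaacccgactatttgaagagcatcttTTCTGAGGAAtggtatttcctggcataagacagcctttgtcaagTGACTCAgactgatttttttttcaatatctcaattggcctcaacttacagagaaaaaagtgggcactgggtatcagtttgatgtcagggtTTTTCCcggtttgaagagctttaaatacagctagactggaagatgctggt

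The Il4 region held 4 matches to GGAAAA, at positions −185, −161, −78 and −60 from the start site to the first base of the match. Of the 32851 promoter windows of the same length, 0.0396% held 4 or more. The cutoff of 4 equals the count in the Il4 region itself, which stood out among several windows searched for several motifs. The share is thus a description only and cannot measure how unusual this region is. Whether the matches bear on the levels of these genes was not tested. The match at −161 overlaps a match to the STAT6-spaced motif at −167. The Il9 region held a STAT6-spaced match at −184 and a TGANTCA match at −140, besides 2 GGAAAA matches. The Il13 region held a GATA match at −81 and 1 GGAAAA match. Among all windows, 5.85% held the STAT6-spaced motif, 16.6% a GATA match, 20.4% GGAAAA, 6.75% TGANTCA and 0.931% an NFIL3 match. A second Il4 window and the windows of Gata3, Il4ra, Il5 and Nfil3 held no match to these letters, and Il1rl1 held GATA matches in both of its windows.

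Gata3, the Th2 master regulator, lies on chromosome 2 (chr2:9857078-9890034, minus strand). It was at 39.3, 13.02 and 54.0 CPM in control replicates 1, 2 and 3, and at 7.21, 9.48 and 18.6 CPM in KO replicates 1, 2 and 3. Control replicate 2 was below KO replicate 3, so the groups overlapped, but KO was lower in each pair of equal number, with log2 ratios of −2.45, −0.46 and −1.54. The mean fell from 35.4 ± 20.7 to 11.7 ± 6.002 CPM (SD, n = 3), a 3.03-fold lower fitted level (log2 fold change −1.60 with SE 0.504, edgeR adjusted p = 0.0290). The call was lost without control replicate 1 (−1.56, adjusted p = 0.0610), KO replicate 1 (−1.35, adjusted p = 0.0823) or KO replicate 2 (−1.46, adjusted p = 0.102). Control replicate 2 was the lowest control library for Gata3, Il4 and Il13 alike.

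Stat6, the factor that carries the IL-4 signal to the nucleus, was at 217, 231 and 209.8 CPM in control and at 220.3, 251 and 290.3 CPM in KO. It lies on chromosome 10 (chr10:127642986-127660957, plus strand). The groups overlapped and the difference did not pass the test (219 ± 10.95 and 254 ± 35.1 CPM, n = 3, ± SD; log2 fold change 0.21 with SE 0.130, edgeR adjusted p = 0.211). The messenger RNA level says nothing of STAT6 phosphorylation.

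Nfil3 encodes a leucine zipper factor that is induced by IL-4, tunes Th2 cytokines and links the circadian clock to Th17 differentiation. It lies on chromosome 13 (chr13:52967209-52981073, minus strand). Control libraries held 84.6, 81.1 and 78.1 CPM, and KO libraries 80.8, 101 and 148 CPM. KO replicate 1 lay within the control range and KO replicate 3 far above it. The means were 81.3 ± 3.23 and 110 ± 34.4 CPM (n = 3, ± SD; log2 fold change 0.43 with SE 0.198, edgeR adjusted p = 0.102). Leaving out KO replicate 1 gave a called difference (0.61, adjusted p = 0.0215), and leaving out KO replicate 3 gave 0.16 (adjusted p = 0.407).

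Il4ra encodes IL-4Rα, shared by the receptors for IL-4 and IL-13. It lies on chromosome 7 (chr7:125552120-125579474, plus strand). Levels were 479, 398 and 580.2 CPM in control and 501, 561 and 625 CPM in KO. The ranges overlapped, and the log2 fold change was 0.21 (SE 0.162, edgeR adjusted p = 0.311; 486 ± 91.3 and 563 ± 61.8 CPM, SD, n = 3). Leaving out 1 library in turn gave values of 0.073 to 0.31, none of them called.

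Il1rl1 encodes ST2, the receptor for the alarmin IL-33, carried by Th2 cells, innate lymphoid cells, mast cells and a subset of regulatory T cells. It lies on chromosome 1 (chr1:40429570-40465415, plus strand). It was close to the limit of detection, with 5, 8 and 2 counts in control replicates 1, 2 and 3 and 14, 19 and 11 counts in KO. These were 0.304, 0.165 and 0.0475 CPM in control and 0.532, 0.507 and 0.559 CPM in KO, and the groups did not overlap, with KO above control as for 29.9% of all tested genes. The rise (log2 fold change 1.802 with SE 0.593, edgeR adjusted p = 0.0344) was not called when any single library other than control replicate 1 was left out, nor with DESeq2 (1.73, adjusted p = 0.0813). It was lost too without a filter on low counts (1.77, adjusted p = 0.0510), and the libraries numbered 1 and 2 alone gave 1.26 (adjusted p = 0.137).

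Markers of other cells that carry ST2 were read against the 46.1% of all tested genes that were called and the 23.2% called higher. Of 13 mast cell, basophil and eosinophil markers in the table, 6 could be tested and 3 rose, namely Cpa3, Mcpt8 and Gata2. None fell, so 50% of the 6 were called higher, against 23.2% of all tested genes. In either direction the share was near the 46.1% of all tested genes. The 13 markers summed to 5.11 to 6.11 CPM in control and 6.66 to 9.72 CPM in KO, and Mcpt4 was at 0 in every library. The number that rose was 1, Cpa3, without KO replicate 2, 2 without control replicate 2, control replicate 3 or KO replicate 1, and 6 without a filter on low counts. With the libraries numbered 1 and 2 alone, Cpa3 and Ms4a2 were called. Of 8 markers of innate lymphoid type or NKT cells, 4 could be tested and 2, Calca and Zbtb16, rose. Mean levels went from 0.202 to 1.37 CPM for Calca and from 0.229 to 2.66 CPM for Zbtb16. Their log2 fold changes were 2.89 and 3.94 (edgeR adjusted p = 0.00726 and 0.00433), and both were called higher in every alternative. The 8 markers summed to 0.722 to 2.61 CPM in control and 5.51 to 6.92 CPM in KO, with Klrg1, Klrb1c and Rxrg at 0 throughout. Of 7 markers of regulatory T cells, 4 rose and 3 fell, and their summed level was 4705 to 5133 CPM in control and 1882 to 2223 CPM in KO. Activated T cells also express some markers of this list, which therefore does not count regulatory T cells. Il2ra, Ctla4 and Tnfrsf18 fell (log2 fold changes −1.52, −2.09 and −0.67, edgeR adjusted p = 0.000264, 3.9e-05 and 0.014). Foxp3, the defining factor, was one of the 4 and rose from 1.42 ± 0.199 to 3.29 ± 1.31 CPM (n = 3, ± SD; edgeR adjusted p = 0.0244). Foxp3 was not called without control replicate 1, control replicate 3, KO replicate 1 or KO replicate 2. Ikzf2, Nrp1 and Capg also rose (log2 fold changes 1.73, 0.95 and 0.50, edgeR adjusted p = 0.00109, 0.0119 and 0.0385). Ikzf2 and Nrp1 were called higher in every alternative, while Capg lost its call in some. Of 9 myeloid markers in the table, 3 could be tested and 2, Cd68 and Csf1r, rose. Their log2 fold changes were 2.66 and 1.72 (edgeR adjusted p = 0.00079 and 0.0256). Cd68 was called higher in every alternative, while Csf1r lost its call in some. The 9 markers summed to 2.6 to 5.25 CPM in control and 17.0 to 28.6 CPM in KO. Cd68 alone went from 3.19 ± 1.32 to 20.0 ± 6.11 CPM (n = 3, ± SD). The part of any of these cells in the Il1rl1 result or in other differences was not tested.

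Levels of different genes were compared per kilobase of exon (reads per kilobase on the CPM scale, RPKM). In control the order was Il9 (528 ± 381), Il4ra (80.9 ± 15.2), Stat6 (49.8 ± 2.49), Nfil3 (40.1 ± 1.59), Gata3 (8.91 ± 5.21), Il4 (6.49 ± 2.89), Il13 (1.27 ± 0.758), Il1rl1 (0.0250 ± 0.0186) and Il5 (0.0155 ± 0.0268, SD, n = 3). Gata3 and Il4 overlapped in this order, as did Il1rl1 and Il5, and the other neighbours did not. In KO, Il9 (192 ± 154) overlapped Il4ra (93.7 ± 10.3), and Stat6 (57.6 ± 7.97) overlapped Nfil3 (54.2 ± 17.0). Il4 (0.988 ± 0.352) then lay below Gata3 (2.95 ± 1.51) without overlap. Il4ra and Stat6 were thus at 47.65 RPKM or more in every library, and Il4, Il13 and Il5 at 8.46 RPKM or less. The other receptor, Il1rl1, was at 0.00689 to 0.0811 RPKM, and the cytokine Il9 at 78.7 to 838.9 RPKM.

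The other genes of both chromosomal neighbourhoods were examined because Il4 and Il13 share a locus with regulatory elements inside Rad50. Kif3a, which encodes a kinesin motor subunit and lies next to Il4, fell from 31.1 ± 9.35 to 12.8 ± 0.209 CPM (n = 3, ± SD; log2 fold change −1.28, edgeR adjusted p = 0.00177). Rad50, the DNA repair gene between Il13 and Il5, fell from 131 ± 15.1 to 69.6 ± 2.84 CPM (−0.91, adjusted p = 0.000657). Irf1, an interferon response factor on the far side of Il5, went the other way and rose from 34.5 ± 6.28 to 197 ± 37.4 CPM (2.51, adjusted p = 7.9e-05). The fall was thus shared by the genes on either side of Il13 but not by Irf1. All 5 tested genes of the locus were called, 4 lower and 1 higher. Of all tested genes, 22.9% were called lower and 23.2% higher. Whether the shared fall is a trait of the locus was not tested.

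In the IL-1 receptor gene cluster all 6 genes were called, 5 higher and 1 lower, against 46.1% of all tested genes (23.2% higher and 22.9% lower). The number fell to 3 without KO replicate 2 and was 4 or 5 when any other library was left out, Il1rl1 being among those lost in 5 of the 6 such fits. Il18rap and Il18r1, the 2 chains of the IL-18 receptor next to Il1rl1, rose from 2.41 ± 0.894 to 44.8 ± 9.38 CPM and from 4.75 ± 0.916 to 33.8 ± 5.40 CPM (n = 3, ± SD; log2 fold changes 4.27 and 2.84, edgeR adjusted p = 6.8e-05 and 7.0e-05). Il1rl2, a receptor for IL-36, rose from 8.69 ± 0.812 to 46.8 ± 10.5 CPM (2.43, adjusted p = 9.8e-05). Il1r1, the signalling IL-1 receptor, rose by less (0.67, adjusted p = 0.0238), and 4 of the 6 leave-one-out fits did not call it. Il1r2, the decoy receptor at the other end, was lower (−2.42, adjusted p = 0.0329), but control replicate 3 held 13.6 CPM against 2.19 and 1.82 CPM in replicates 1 and 2. Without that library Il1r2 was at −0.90 and no longer called, and the libraries numbered 1 and 2 alone gave −1.29 (adjusted p = 0.0368). Il1rl1 had the lowest level of the 6 genes per kilobase in both groups.

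**Figure D2:**
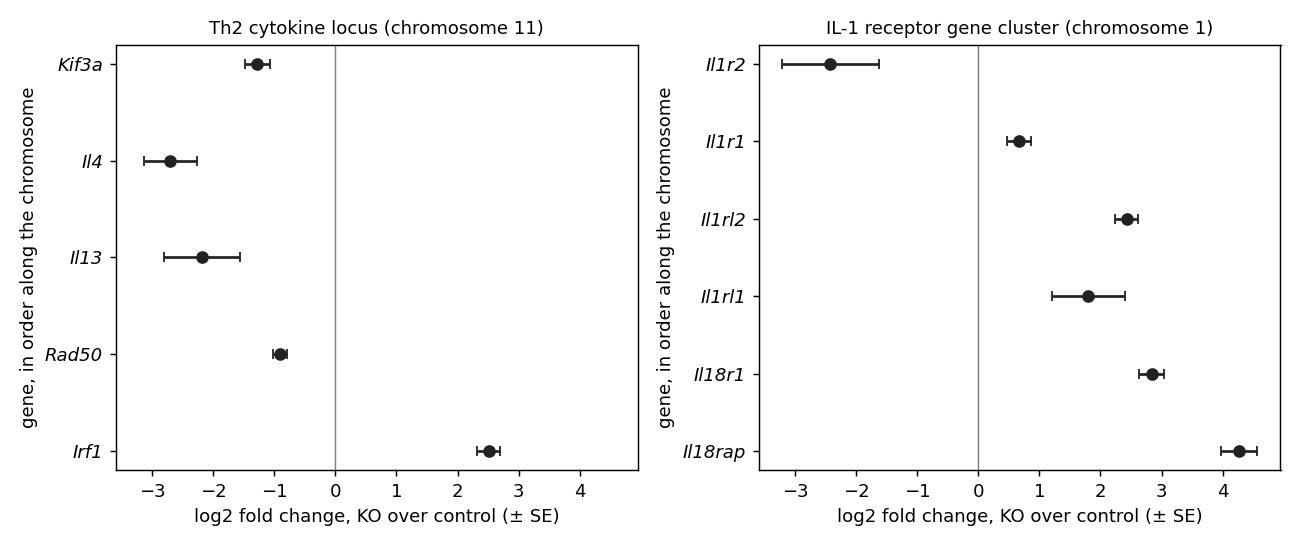
Log2 fold change of KO over control (horizontal axis) with its SE for the tested genes of the Th2 cytokine locus and of the IL-1 receptor gene cluster, from top to bottom in their order along the chromosome. Il4, Il13, Kif3a and Rad50 lie below 0 and Irf1 above it, and in the second cluster Il1r2 alone lies below 0.

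Genes that share a receptor or pathway with the set were described from lists, with the counts read against the 46.1% of all tested genes that were called. For IL-4 and IL-13 signalling, 6 of 12 tested genes were higher and 2 lower, with a median log2 fold change of 0.43. Il2rg, the common γ chain that pairs with IL-4Rα, rose from 180 ± 13.9 to 286 ± 36.3 CPM (n = 3, ± SD; 0.67, edgeR adjusted p = 0.00367). As 27.5% of its 50-base stretches are shared with Gm20489, its value is uncertain. Il13ra1, the alternative partner that also binds IL-13, was at 0.0608, 0.165 and 1.09 CPM in control and at 6.95, 5.74 and 18.8 CPM in KO (log2 fold change 4.41, adjusted p = 0.0029). Without control replicate 3 it reached 6.15, without KO replicate 3 it was 3.71, and the libraries numbered 1 and 2 alone gave 5.52.

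The adaptor gene Irs2, which couples IL-4Rα to PI3K, rose from 60.9 ± 17.0 to 172 ± 51.5 CPM (n = 3, ± SD; log2 fold change 1.499, edgeR adjusted p = 0.00182). Ptpn6, which encodes the inhibitory phosphatase SHP-1, fell from 180 ± 24.5 to 118 ± 6.61 CPM (−0.61, adjusted p = 0.00481). Jak2 fell by less (−0.44, adjusted p = 0.0169), and 3 of the 6 leave-one-out fits did not call it. Among genes of the IL-33 receptor pathway, 2 of 5 tested genes were called, both higher. They were Myd88, the adaptor of IL-1 family receptors, at 1.23 (adjusted p = 0.000688), and the kinase gene Irak4 at 0.94 (adjusted p = 0.000819). Il1rap, the co-receptor of ST2, was at 9.83 ± 1.29 and 9.37 ± 1.44 CPM (−0.065, adjusted p = 0.803), and its sign flipped when libraries were scaled by size alone and when KO replicate 2 was left out.

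Of 13 tested factors that promote Gata3 or the Th2 state, 7 were called lower and 1 higher (median log2 fold change −0.63). Over all tested genes 22.9% were called lower and 23.2% higher, and the list was chosen with earlier results of these data known. Of the promoting factors called lower, the naming rule gave Pparg (−1.97, edgeR adjusted p = 0.0379), a lipid-sensing nuclear receptor. It also gave Satb1 (−1.49, adjusted p = 0.000259), a chromatin organiser of the Th2 locus. Satb1 went from 1629 ± 255 to 581 ± 52.2 CPM (SD, n = 3). Gfi1 (−1.39), Rbpj (−1.25), Ets1 (−0.90), Irf4 (−0.69) and Ikzf1 (−0.63) were the other 5, and apart from Irf4 they are named after their values were seen. Bhlhe41, a repressor of the clock family that sustains Th2 cytokines, was the gene called higher (2.15, adjusted p = 0.0404). The calls of Bhlhe41 and Pparg did not hold in 5 and 4 of the 6 leave-one-out fits, with Bhlhe41 at 3.96 and Pparg at −1.29 without control replicate 3. With the libraries numbered 1 and 2 alone Bhlhe41 was at 4.13.

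Of 7 tested factors that counter Gata3 or the Th2 state, 3 were called, each of them higher. Over all tested genes 46.1% were called and 23.2% were called higher. Tbx21, the Th1 master regulator whose product binds and opposes GATA3, was at 3.28, 4.25 and 2.73 CPM in control and at 24.8, 10.3 and 33.9 CPM in KO (log2 fold change 2.74, edgeR adjusted p = 0.00118). Bcl6, the follicular helper repressor that competes with STAT6 for DNA, rose from 8.23 ± 0.895 to 42.2 ± 5.93 CPM (n = 3, ± SD; 2.36, adjusted p = 6.8e-05). Eomes, named after its values were seen, rose to 1.55 ± 0.603 CPM from 0.0991 ± 0.0574 (3.78, adjusted p = 0.000946), and was at 3.16 with the libraries numbered 1 and 2 alone. Runx1, Runx3, Zfpm1 and Sox4 did not pass the test.

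Of the other cytokines and receptors associated with Th2 cells, 9 of 12 could be tested, and 4 were lower and 1 higher. Without a filter on low counts 8 were called. Il10 and Il21 fell the most (log2 fold changes −2.42 and −2.16, edgeR adjusted p = 7.1e-05 and 0.000236). Il24, a cytokine of the IL-10 family made by Th2 cells, and Ccr4, a homing receptor of Th2 cells, are named after their values were seen. Il24 fell from 149 ± 49.2 to 36.9 ± 9.04 CPM (n = 3, ± SD; −2.01, adjusted p = 0.000754), and Ccr4 from 165 ± 25.8 to 80.1 ± 8.51 CPM (−1.04, adjusted p = 0.000879). Il6, also named afterwards, rose but stayed under 1.17 CPM in all libraries (3.89, adjusted p = 0.00125). Among 6 tested regulators of Il9, the factor gene Irf4 was the single one called (−0.69, adjusted p = 0.00231). The number called was 3 with the replicate block and without control replicate 3, and 2 with upper-quartile factors, with library size only and with the libraries numbered 1 and 2 alone.

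The clock genes that are tied to Nfil3 split between directions, with 5 of 12 tested genes lower and 2 higher. Ciart and Per2, both repressors in the clock, fell from 12.6 ± 4.19 to 2.27 ± 0.305 CPM and from 6.53 ± 2.40 to 1.23 ± 0.475 CPM (n = 3, ± SD; log2 fold changes −2.47 and −2.39, edgeR adjusted p = 0.000524 and 0.0016). Of the 50-base stretches of Ciart, 11.9% occur in Gm9176. Per3 and Per1 rose (1.51 and 0.65, adjusted p = 0.00382 and 0.00342). Dbp (−1.16), Tef (−0.88) and Cry2 (−0.80), named after their values were seen, were the others called lower, and 4 of the 6 leave-one-out fits did not call Dbp.

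**Figure D3:**
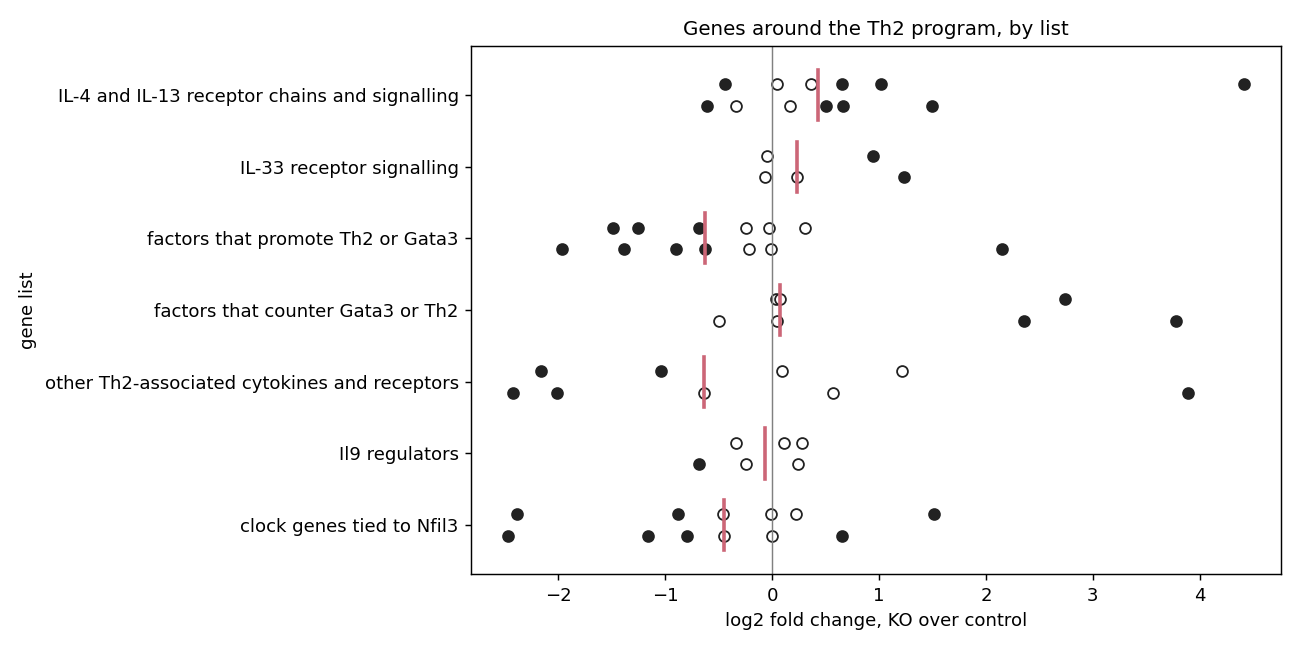
Log2 fold change of KO over control (horizontal axis) for each tested gene of 7 lists around the Th2 program, with filled points for genes at an adjusted p under 0.05 and a red bar at the list's median. Medians run from −0.63 for the promoting factors and the other cytokines to 0.43 for IL-4 and IL-13 signalling.

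**Figure D4:**
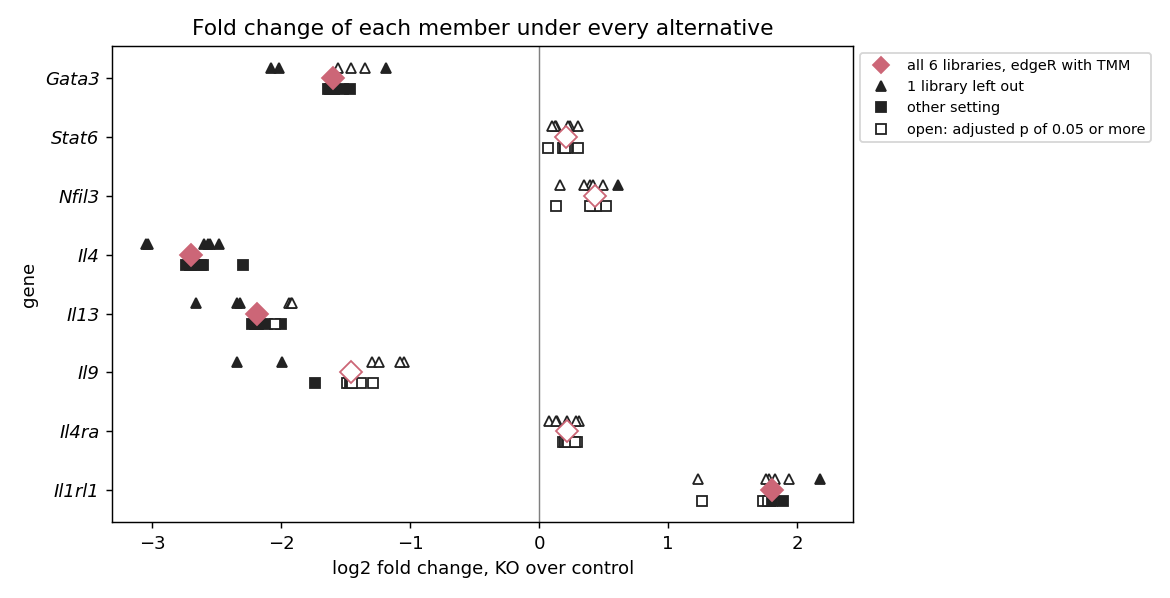
Log2 fold change of KO over control (horizontal axis) for the 8 tested genes with all 6 libraries (diamonds), with 1 library left out (triangles) and under the other settings (squares), filled where the adjusted p was under 0.05. Il4 is filled throughout, from −3.05 to −2.30, while Gata3, Il13 and Il1rl1 lose their call in some fits and Il9 gains one in others.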

How the data were processed

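The authors deposited whole-number counts per gene symbol for 6 libraries. Per the submitters' processing notes, STAR, featureCounts, DESeq2 and the mm10 build were used, with roles not stated. Annotation, strand setting and versions are not given in the sources used here. Every column had its sample and every line a gene symbol.

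KO was compared with control over 6 libraries by the quasi-likelihood test of edgeR 4.0.16 in R 4.3.3, with TMM factors, filterByExpr by group, no covariate and Benjamini-Hochberg adjustment over 14268 genes. It was tested on simulated data. The SE is the absolute log2 fold change over the square root of F. Each mean has its SD over 3 libraries, and the biological coefficient of variation was 0.212. No exact permutation test was used, since 3 against 3 cannot go below 0.1.

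The members and lists were chosen with earlier results of these data known. The rule named all 9 members, Rtf1, the receptor partners, the genes of both loci and, per list, the 2 largest rises and falls among called genes of at least 1 CPM. Coordinates, exon lengths, overlaps and shared 50-base stretches came from GENCODE M21 (GRCm38), which held 98.4% of the symbols and all 9 members. Promoters came from RefSeq (GRCm38.p6), with 11 windows for the 9 genes. One gene among those most like a member is not reported here.

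Ratios between libraries of equal replicate number are given as a description. Their deviations from the group means correlated at 0.27, 0.13 and 0.379 for numbers 1, 2 and 3. Between unequal numbers the correlation was −0.39 to 0.204, with the highest, control replicate 2 with KO replicate 1, above the 0.13 of number 2. The libraries numbered 3 also share their sex. These values do not settle whether the libraries were paired, and the main test used no pairing. What the numbers mark is not in the labels.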

Additional observations from a re-analysis of the deposited data

How the results depend on the processing

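Over 14 alternatives no tested member reversed its direction, and Il4, Stat6 and Il4ra kept their side of the threshold in each. With the replicate block 7628 genes were called in place of 6574, and no member changed its call (Gata3 −1.47, Il4 −2.605, Il9 −1.29 with adjusted p = 0.0512). With the libraries numbered 1 and 2 alone the log2 fold changes were −2.05 for Il13, −1.74 for Il9 and 1.26 for Il1rl1. Without a filter they were −1.465 for Il9 and 1.77 for Il1rl1, and DESeq2 gave 1.73 for Il1rl1. Leaving out 1 library in turn gave ranges of −2.08 to −1.185 for Gata3, 0.162 to 0.608 for Nfil3, −2.66 to −1.91 for Il13, −2.34 to −1.05 for Il9 and 1.235 to 2.17 for Il1rl1. The members called then numbered 1 (without KO replicate 2) to 4, and the genes called lower 2170 (without KO replicate 2) to 3700. Il1rap turned to 0.0192 with library size only, and ran from −0.188 to 0.0468 with 1 library left out. With a mean count of at least 10, Il1rl1 was not tested. Of 41 list genes called outside the set, 34 were called in each alternative. The causes were not tested. Depth limits Il5, Il1rl1 and Il13, with 3, 15 and 141 counts over the control libraries and 0, 44 and 26 over the KO libraries.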

Other observations

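The genes most like each abundant member over the 6 libraries were found by Pearson correlation of log2 CPM among 9431 named genes, as a description in which the group difference and depth are shared by all genes. For Gata3 they were Emsy (0.985), Insr (0.982) and Nr2c2 (0.976), and 102 genes exceeded 0.9. For Il9 they included Pprc1 (0.985) and Eif5b (0.982). For Stat6 they were St3gal4, B4galnt1 and Stx6 (0.989 to 0.981), for Nfil3 Copg1, Mcm9 and Zfp764 (0.980 to 0.972), and for Il4ra Wdr37, Wdr78 and Cic (0.992 to 0.990). Of the genes named here, Insr alone was called between the groups (log2 fold change −0.52, edgeR adjusted p = 0.0484).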
